A study of Oryza sativa Japonica Group with 14 samples.

Results

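This account describes 1336 regions of the rice genome that carried H3K4me3 in the inflorescence meristem but neither H3K4me3 nor H3K27me3 in the shoot apical meristem. They were taken from the 22183 H3K4me3 peaks deposited for the wild-type inflorescence meristem, of which they are 6.02%. A peak was included when it overlapped, by at least 1 bp, an H3K4me3 peak in both altered genotypes and no wild-type shoot apical meristem peak of either mark. The 8 deposited lists held 130467 peaks in all. The regions were thus selected on the peak calls of 5 measured lists, so presence in the inflorescence lists and absence from the shoot apical lists are descriptions of the regions and not findings about them.

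All samples came from field-grown rice in the DongJin background. The shoot apical meristem (SAM) samples were wild-type (WT) apices under 0.5 mm, at the 6 to 7 leaf stage. Inflorescence meristem (IM) was taken at the 10 to 12 leaf stage, as apices of 1 to 2 mm, from WT plants, from plants carrying an RNA interference (RNAi) construct against SDG711, and from a JMJ703 T-DNA insertion line called jmj703. The RNAi apices were collected on 17 to 19 June, before the WT and jmj703 apices of 21 to 24 June, so genotype and harvest date cannot be told apart for them. Apices were dissected by hand from about 400 plants, and jmj703 was 1 insertion line. One ChIP-seq library stood for each group and mark, so the spread between replicates is unknown and nothing was tested. In such bulk samples, fewer cells with a mark and less of it per cell cannot be told apart. Peak lists hold no gene names or expression values, so the identity of the tissues was not checked against markers.

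H3K4me3 is a trimethyl mark on histone H3 lysine 4 that sits just downstream of the start of transcribed genes. H3K27me3 is set by Polycomb complexes and covers genes that are kept silent, among them many regulators of development. SDG711 is a rice homologue of the catalytic subunit of the Polycomb complex that writes H3K27me3, and JMJ703 is a jumonji-domain demethylase that removes methyl groups from H3K4. At the turn to flowering the meristem stops making leaves and starts making panicle branches, and genes of both programs exchange active and silent chromatin. The regions described here were listed with the active mark in IM only, at places where no Polycomb mark was listed in SAM.

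The H3K4me3 libraries held 13703302 tags for WT SAM, 18452560 for WT IM, 17941001 for SDG711 RNAi IM and 4869161 for jmj703 IM. H3K27me3 libraries ranged from 10502005 to 22887617 tags. Peaks took 24.4% of the H3K4me3 tags of WT SAM and 37.7% to 41.1% of those of the IM libraries. The WT SAM library was therefore both shallower and less enriched than that of WT IM, which bears on every absence from the SAM list. Intervals on shares are 95% Wilson intervals over peaks. Intervals on tag densities and their ratios are exact 95% intervals. They cover counting error only, and neighbouring peaks are not independent.

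The rule removed peaks in 3 steps. No WT SAM H3K4me3 peak met 2475 of the 22183, a background share of 11.2%. Of these, 296 overlapped a WT SAM H3K27me3 peak and 2179 overlapped neither mark. Of the 2179, 1336 were listed in both altered genotypes (61.3%, interval 59.2 to 63.3%), 626 in SDG711 RNAi IM only, 50 in jmj703 IM only and 167 in neither. Over all WT IM peaks, 96.9% had an SDG711 RNAi IM peak, 86.8% a jmj703 IM peak and 86.1% both. Most of the exclusions at the last step therefore came from the jmj703 list, which has the shallowest library.

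The share held in both altered genotypes rose with the significance of the WT IM peak and was close in peaks with and without a SAM call. At a WT IM −log10 p of 5 to 10, 40.5% of the peaks with no SAM mark were held (396 of 977), against 33.8% of those with SAM H3K4me3 and no SAM H3K27me3 (253 of 749). At 10 to 20 these shares were 71.4% and 69.5%, at 20 to 40 they were 89.4% and 92.5%, and at 40 or more 97.3% and 99.4%. The intervals of each pair overlapped in every range except the lowest, where they were 37.5 to 43.6% and 30.5 to 37.2%.

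Peaks at the new sites were modest in strength and short. The median WT IM fold enrichment, which is the authors' ratio of peak height to the regional background of the same library, was 4.79 with quartiles of 4.05 and 5.75. The median length was 1224 bp, with quartiles of 1061 and 1429 bp, and the median peak held 145 tags. A set of 15765 constant peaks, which carried H3K4me3 in WT SAM and all IM lists and no SAM H3K27me3, had a median fold of 6.53, a length of 1625 bp and 320 tags. A smaller set of 136 peaks was also new in all 3 IM lists but lay on WT SAM H3K27me3. Those peaks had a median fold of 4.24, a length of 1311 bp and 144 tags, so their medians lay much nearer to those of the Polycomb-free sites than to those of the constant peaks. Of the 1336 new sites, 940 reached a p of at most 1e-10 in WT IM (70.4%), against 89.7% of all WT IM peaks.

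Tag density is the number of tags per kb of a library's own called peak, divided by the library total in units of 1e+06 tags. At the new sites its median was 6.38 for WT IM (quartiles 5.46 and 7.53), 7.18 for SDG711 RNAi (6.15 and 8.40) and 10.1 for jmj703 (8.59 and 12.1). Constant peaks had medians of 10.5, 10.3 and 13.2 in the same order. New peaks on SAM H3K27me3 had 5.72, 6.43 and 9.13. In every IM library the interquartile range of the new sites lay below the median of the constant peaks.

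**Figure D1:**
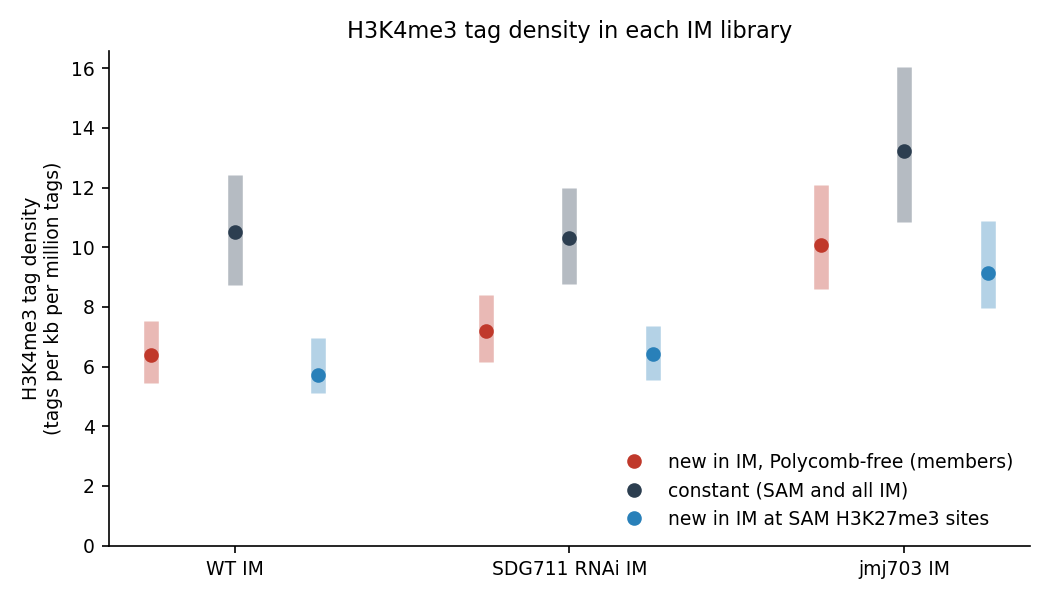
H3K4me3 tag density (tags per kb per 1e+06 tags) in each IM library for the new Polycomb-free sites (red), the constant peaks (dark) and the new peaks on SAM H3K27me3 (blue). Points are medians and bars run from the lower to the upper quartile. In WT IM the medians are 6.38, 10.5 and 5.72 tags per kb per 1e+06 tags.

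The most significant site was on chromosome 11 from 26490859 to 26492445. It held 369 tags in each of WT IM and SDG711 RNAi IM, against 66 from the shallower jmj703 library. Tag density was 12.6 for WT IM (interval 11.3 to 14.0), 11.9 for SDG711 RNAi (10.7 to 13.2) and 9.66 for jmj703 (7.47 to 12.3). It was highest in WT IM and lowest in jmj703, and all 3 intervals overlapped. Its WT IM −log10 p was 91.3.

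The second site lay on chromosome 4 from 25396859 to 25398516, with 329, 367 and 84 tags in WT IM, SDG711 RNAi IM and jmj703 IM. Its tag densities of 10.8, 11.2 and 11.4 in that order had intervals that overlapped throughout. Next came the peak on chromosome 1 from 11783615 to 11785571 and held 321, 415 and 112 tags. Here the density was 8.89 for WT IM (7.94 to 9.92), 11.2 for SDG711 RNAi (10.1 to 12.3) and 15.0 for jmj703 (12.3 to 18.0), so both altered genotypes stood above WT. Its jmj703 IM signal was split over 2 called peaks.

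The highest fold of all the new sites belonged to chromosome 5 from 3194334 to 3195935. It had a fold of 10.7 in the WT IM list, from 256 tags, and held 249 and 52 tags in SDG711 RNAi and jmj703. Its summit was at the same base in WT IM and SDG711 RNAi IM and 21 bp away in jmj703 IM. Others of high fold were chromosome 8 from 25301465 to 25302515, with a WT IM fold of 10.3, and chromosome 11 from 28055036 to 28055935, with 9.56. These were compact peaks of 1051 and 900 bp.

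Among the 10 sites with the highest WT IM score, WT IM densities ran from 7.50 to 12.6, SDG711 RNAi IM densities from 6.47 to 13.2 and jmj703 IM densities from 9.03 to 15.0. The jmj703 IM density exceeded that of WT IM at 9 of the 10, and the SDG711 RNAi IM density did so at 6 of the 10. Over all WT IM peaks in all 3 IM lists these shares were 89.8% and 46%. None of the 10 overlapped an H3K27me3 peak in any IM library, where the background over all WT IM H3K4me3 peaks was 18.6%. That background includes peaks on SAM H3K27me3, which the rule left out. The share was 6.81% over all new sites and 2.78% of the 36 with a WT IM −log10 p of 40 or more, so the 10 were not set apart. All 10 were at least 2009 bp from a WT SAM H3K4me3 peak and at least 1876 bp from a WT SAM H3K27me3 peak.

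**Figure D2:**
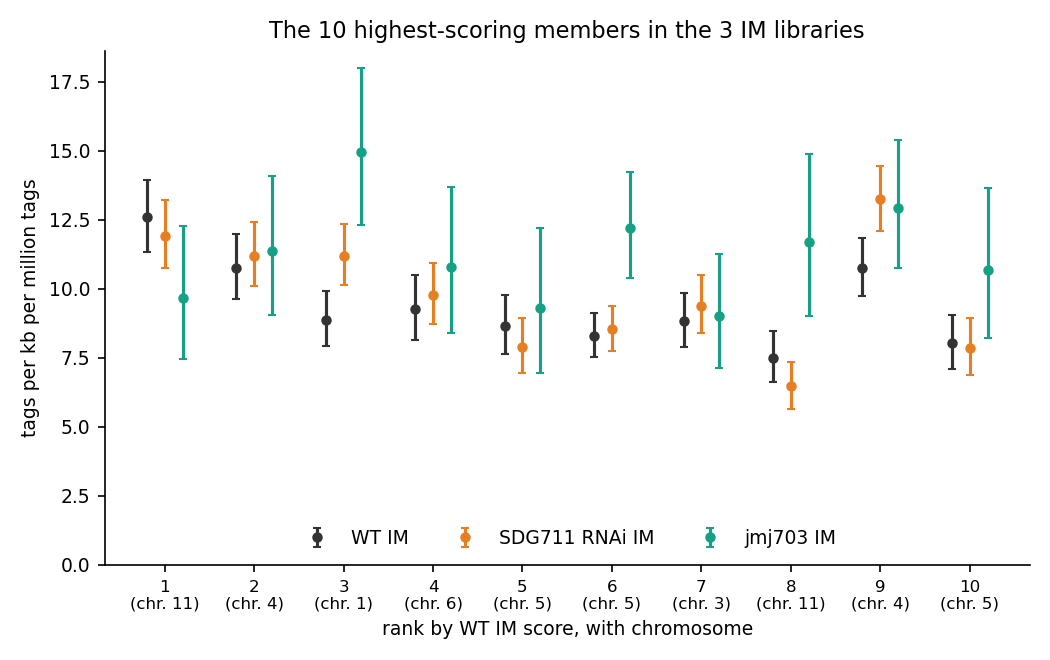
H3K4me3 tag density (tags per kb per 1e+06 tags) in WT IM, SDG711 RNAi IM and jmj703 IM at the 10 new sites with the highest WT IM score, ordered by rank. Bars are exact 95% Poisson intervals of 1 library each. Rank 1, on chromosome 11, is lowest in jmj703 IM at 9.66, and rank 3, on chromosome 1, rises from 8.89 in WT IM to 15.0 in jmj703 IM.

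Absence from the WT SAM list was read against the depth and enrichment of that library. The SAM library had 0.743 times the tags of the WT IM library and a median excess tag density 0.704 times as high over 19361 peaks shared one to one. From each WT IM peak's tags and deposited p, the probability was computed that the same enrichment would have passed the authors' cutoff in such a SAM library. For the new sites the median probability was 0.694 with quartiles of 0.342 and 0.954. It was at least 0.99 at 183 sites (13.7%, interval 12.0 to 15.6%) and under 0.5 at 490 sites (36.7%). With depth alone and equal enrichment, 603 sites reached 0.99 (45.1%).

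Among the 17101 WT IM peaks that were in all 3 IM lists and had no SAM H3K27me3, the calculation gave 1035 expected to be missing in SAM, and 268 with depth alone. The number missing was 1336. In the 13214 of these peaks with a probability of at least 0.99, 6.13 were expected to be missing and 183 were (1.38%, interval 1.20 to 1.60%). Over all 22183 WT IM peaks, 2789 were expected to be missing and 2475 were, so the calculation as a whole gave too many. It treats the observed tags as the real rate, applies 1 median ratio to all peaks and leaves out spread between preparations. That ratio is per kb of each library's own peaks, and WT SAM peaks were shorter (median 1323 bp against 1570 bp in WT IM). The effect of this on the expected numbers, among them the 6.13, was not tested. For the weaker new sites, no H3K4me3 in SAM and H3K4me3 below the limit of the SAM library therefore cannot be told apart. The 183 were themselves chosen by absence from the SAM list, and whether they lacked H3K4me3 in SAM was not tested. The 183 sites had a median fold of 6.42, a length of 1434 bp and 209 tags. They included all 10 of the highest-scoring sites. Their tags and scores are high by choice, since the probability is computed from tags and p.

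**Figure D3:**
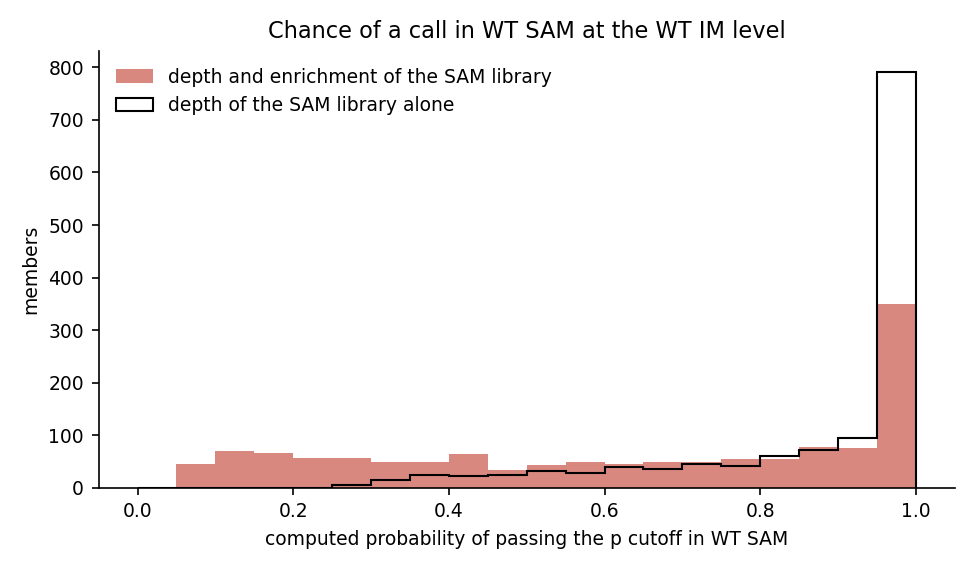
Number of new sites by the computed probability that their WT IM enrichment would have passed the p cutoff in the WT SAM library. Filled bars allow for the depth and enrichment of the SAM library, with 183 of 1336 sites at 0.99 or more, and the outline allows for depth alone, with 603.

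H3K27me3 of the IM libraries was not used to choose the sites. It was listed at 54 of the 1336 in WT IM (4.04%, interval 3.11 to 5.24%), where the background over all WT IM H3K4me3 peaks was 13%. It was listed at 47 sites in SDG711 RNAi IM (3.52%, background 6.65%) and at 59 in jmj703 IM (4.42%, background 14.1%). In all, 91 sites had it in at least 1 IM library (6.81%, interval 5.58 to 8.29%, background 18.6%) and 20 in all 3 (background 4.87%). The remaining 1245 sites were without H3K27me3 in every list. These shares lay under the background in each library, and the background includes peaks on SAM H3K27me3, which the rule left out.

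Against constant peaks, which also had no SAM H3K27me3, the direction depended on the library. Constant peaks had H3K27me3 at 7.66% for WT IM, 2.85% for SDG711 RNAi and 9.16% for jmj703. The new sites were thus lower in WT IM and jmj703 IM, while in SDG711 RNAi IM the intervals of 2.66 to 4.65% and 2.61 to 3.13% overlapped. Within ranges of significance the order of the shares was mixed. At a WT IM −log10 p of 5 to 10, 6.06% of new sites (interval 4.11 to 8.86%) and 11.1% of constant peaks (7.77 to 15.5%) had H3K27me3 in some IM library. At 10 to 20 the shares were 7.30% (5.41 to 9.79%) and 6.21% (4.99 to 7.70%), and at 20 to 40 they were 7.30% (5.03 to 10.5%) and 4.93% (4.29 to 5.66%). At 40 or more they were 2.78% (1 of 36 sites, 0.492 to 14.2%) and 16.9% (16.2 to 17.7%). The intervals overlapped in every range but the last. Of new peaks on SAM H3K27me3, 82.4% had the mark in at least 1 IM library (112 of 136).

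IM H3K27me3 was listed more often at sites next to SAM H3K27me3. The rule asks only for no overlap, and 105 sites lay within 1 kb of a WT SAM H3K27me3 peak (7.86%, against 4.24% of constant peaks). H3K27me3 was listed in an IM library at 25 of these 105 (23.8%, interval 16.7 to 32.8%) and at 66 of the other 1231 (5.36%, interval 4.24 to 6.76%). For constant peaks the corresponding shares were 26.3% and 12.5%. A small part of the sites called Polycomb-free thus bordered a Polycomb region, and the other 66 of the 91 did not lie within 1 kb of one in SAM.

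The 6 highest-scoring sites with H3K27me3 in all 3 IM lists differed in how far the marks overlapped. On chromosome 4 from 32564424 to 32565559 the H3K27me3 peak covered the whole H3K4me3 peak in all 3 genotypes. H3K27me3 held 194 tags there in WT IM, 115 in SDG711 RNAi and 156 in jmj703, and H3K4me3 held 136, 150 and 37. At the other 5 the SDG711 RNAi H3K27me3 peak covered 2.02% to 29.2% of the H3K4me3 peak. An example is chromosome 12 from 24215186 to 24216543, with H3K4me3 tags of 201, 209 and 55, where an H3K27me3 peak of 5318 bp in WT IM covered 219 bp of it. That site was 189 bp from a WT SAM H3K27me3 peak. On chromosome 1 from 15391049 to 15392403 the covered share was 87.6% for WT IM, 29.2% for SDG711 RNAi and 26.6% for jmj703. The marks were profiled in separate libraries, so their presence on one and the same nucleosome was not tested.

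Levels in the altered genotypes were compared with WT IM as ratios of tag density. Both ratios share the WT IM library, and a peak called just above the WT IM cutoff gives high ratios in both by its choice. The rule also asks for a call in both altered lists. The lowest jmj703 density at any new site was 6.43, while the median WT IM density was 6.38. Low jmj703 ratios were thus partly left out by the rule itself. The jmj703 to WT ratio had a median of 1.57 over the new sites (quartiles 1.37 and 1.83) and was above 1 at 98.6% of them. Over all WT IM peaks in all 3 IM lists, 89.8% were above 1, and the median of constant peaks was 1.26. Between peaks of the same WT IM significance the medians lay closer. They were 1.70 at new sites and 1.62 at constant peaks for a −log10 p of 5 to 10, and 1.56 and 1.43 for 10 to 20. For 20 to 40 they were 1.42 and 1.31, and for 40 or more 1.23 and 1.22. New peaks on SAM H3K27me3 had a median of 1.54, so the value was not set apart from theirs either. Peaks of the shallow jmj703 library were narrower, with a median of 975 bp at the new sites against 1224 bp in WT IM, and a narrower peak has a higher density. How much of the ratio this makes up was not tested.

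The SDG711 RNAi to WT ratio, between libraries of nearly equal depth, had a median of 1.10 at the new sites (quartiles 1.02 and 1.20) and 0.985 at constant peaks. It was above 1 at 78.8% of the new sites (1053 of 1336), with a background of 46% over peaks in all 3 IM lists. The SDG711 RNAi peaks were also wider than those of WT IM at 80.9% of the sites, and at 77.4% of constant peaks. New peaks on SAM H3K27me3 had a median ratio of 1.09, so the value at the Polycomb-free sites was not set apart from theirs.

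**Figure D4:**
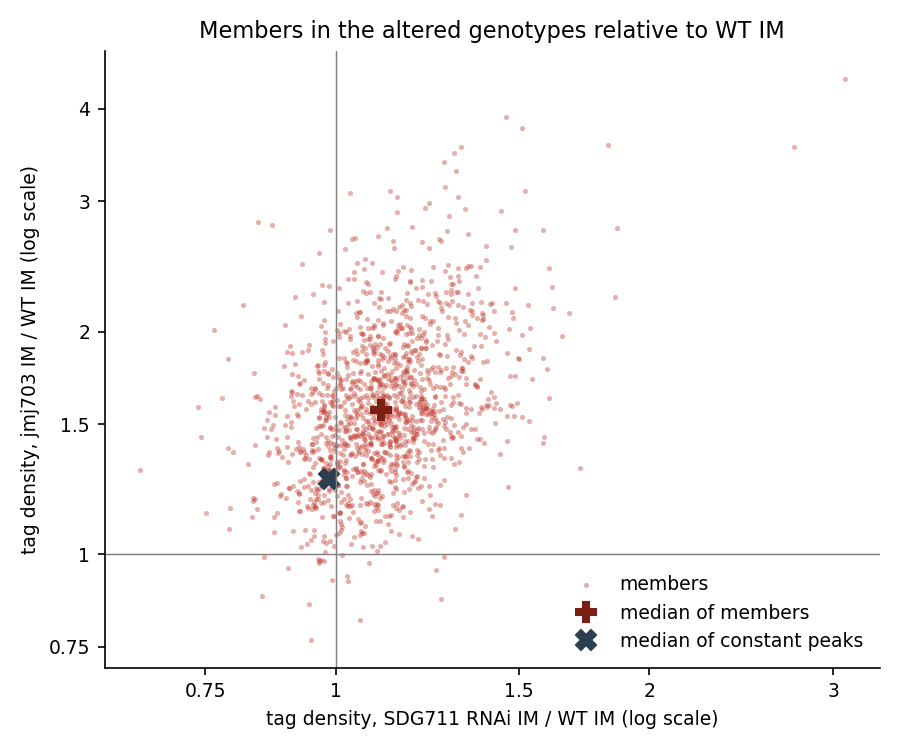
Ratio of H3K4me3 tag density to WT IM in SDG711 RNAi IM (horizontal) and jmj703 IM (vertical), both on log scales, at each of the 1336 new sites. The plus is the median of the new sites (1.10 and 1.57) and the cross that of the constant peaks (0.985 and 1.26). Both axes share the WT IM library.

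A few sites were much higher in both altered genotypes than in WT IM. The ratio exceeded 1.5 in both at 23 sites (1.72%), against 10 of 15765 constant peaks (0.0634%) and 34 of the 19100 peaks in all 3 IM lists, again without matching for significance. The most extreme lay on chromosome 3 from 17809893 to 17810862. It held 77 tags in WT IM, 571 in SDG711 RNAi and 170 in jmj703, with densities of 4.30 (interval 3.40 to 5.38), 13.2 (12.2 to 14.4) and 18.9. The called peak spanned 970 bp in the WT list, 2405 bp in that of SDG711 RNAi and 1847 bp in that of jmj703. Its ratios were 3.08 (interval 2.42 to 3.96) for SDG711 RNAi and 4.39 (3.34 to 5.83) for jmj703.

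Chromosome 7 from 548364 to 549340 had the same form, with 90, 454 and 122 tags and ratios of 2.75 and 3.55. Another, on chromosome 1 from 23214106 to 23215466, held 110, 231 and 84 tags and had ratios of 1.86 and 2.76. These 3 sites had WT IM −log10 p values of 5.41, 5.67 and 7.65, close to the cutoff of 5, and SDG711 RNAi IM values of 109, 77.8 and 40.3. In WT they were among the weakest of the new sites, and none had H3K27me3 in any list.

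The jmj703 ratio was above the SDG711 RNAi ratio at the sites just described and in the medians of all new sites (1.57 and 1.10). On chromosome 11 from 7152770 to 7153678, the 77, 97 and 63 tags gave a jmj703 ratio of 3.90 (interval 2.75 to 5.52) and an SDG711 RNAi ratio of 1.46 (1.07 to 1.99). The jmj703 ratio was above 2 at 210 new sites (15.7%), against 2.52% of constant peaks. These shares were not matched for significance, and 396 of the 1336 new sites but only 253 of the 15765 constant peaks had a WT IM −log10 p of 5 to 10. The jmj703 ratio was under 1 at 19 sites. The most significant site of all, on chromosome 11 from 26490859, was the lowest, at 0.767 (interval 0.581 to 0.999). It also had the highest WT IM score, and a WT IM density that is high by choice gives a low ratio. Intervals of this and the other extreme ratios do not allow for their choice as extremes. Among sites with at least 50 tags in each IM library, the next lowest was chromosome 11 from 22549975 to 22551756. It held 297, 393 and 50 tags and had a ratio of 0.878 (0.637 to 1.19), whose interval includes 1.

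The lowest SDG711 RNAi ratio was 0.649 (interval 0.516 to 0.814), on chromosome 11 from 2041833 to 2043264, with 200, 129 and 65 tags. There WT IM and jmj703 IM densities of 7.57 and 9.84 lay above the 4.91 of SDG711 RNAi IM. On chromosome 6 from 83012 to 87049, with 676, 556 and 243 tags, the ratio was 0.743 (0.663 to 0.832). H3K27me3 was listed there in SDG711 RNAi IM and jmj703 IM and not in WT IM.

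The 3 IM libraries placed the peak at nearly the same point, which the 1 bp rule does not require. Over 1309 sites with a one-to-one partner in SDG711 RNAi IM, the summits were a median of 49 bp apart, and 87.1% were within 200 bp. For jmj703 IM, over 1327 sites, the median was 61 bp and 83.4% were within 200 bp. Constant peaks, which are longer, gave medians of 62 and 79 bp, with 82.9% and 78.7% within 200 bp. More than 1 SDG711 RNAi IM peak was met by 3 sites (0.225%), and more than 1 jmj703 IM peak by 5 (0.374%). Over all WT IM peaks with a partner, which are longer, these shares were 0.447% and 2.33%.

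New sites differed from constant peaks of the same range of p in length and spacing, although no test was made. Equal p did not mean equal peaks. At a WT IM −log10 p of 10 to 20 the median was 135 tags at new sites and 184.5 at constant peaks. With no control, the regional background of 10 kb comes from the same library and can hold neighbouring peaks. The p and the spacing may therefore not be independent, which was not tested. At a WT IM −log10 p of 10 to 20 the median length was 1211 bp against 1353 bp, and at 20 to 40 it was 1345 bp against 1469 bp. The next WT IM H3K4me3 peak was a median of 4934 bp away against 2625 bp in the first range, and 6123 bp against 3420 bp in the second. Over all significances the distances were close, at 5161 bp and 5139 bp. New peaks on SAM H3K27me3 were 5851 bp and 6562 bp from the next peak in these ranges, so wide spacing was not limited to the Polycomb-free sites. Another WT IM peak lay within 1 kb of 7.48% of new sites and 18.1% of constant peaks at 10 to 20, but over all significances the order was the other way, at 8.31% and 6.41%. The rule leaves out sites met by a SAM peak, which can be that of a close neighbour, and its part in this spacing was not tested. The median SDG711 RNAi ratio was 1.09 against 1.06 at 10 to 20 and 1.10 against 1.02 at 20 to 40, so its difference was smaller at equal significance than over all peaks.

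**Figure D5:**
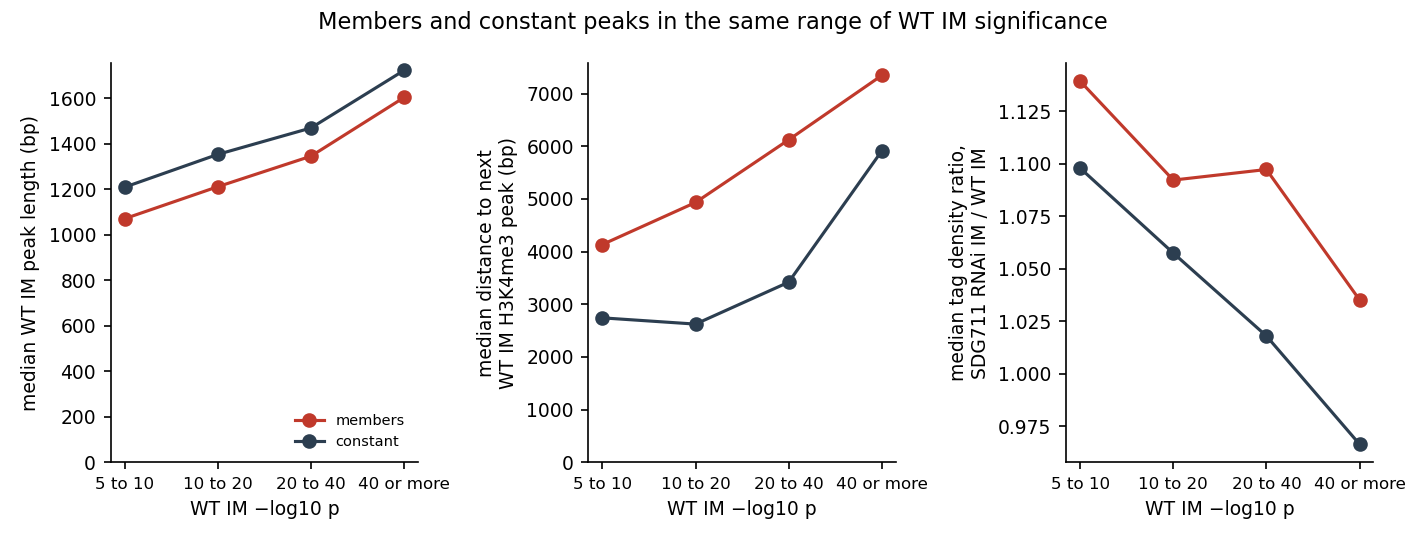
Median WT IM peak length, distance to the next WT IM H3K4me3 peak and SDG711 RNAi to WT ratio of tag density, for new sites (red, labelled members) and constant peaks (dark) in 4 ranges of WT IM −log10 p. In each range the new sites are shorter, farther from the next peak and higher in the ratio, and the third axis does not start at 0.

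Long peaks among the new sites were few. Only 69 were 2 kb or more (5.16%, against 22.1% of constant peaks) and 13 were 3 kb or more. Of these 13, 8 had H3K27me3 in an IM library (interval 35.5 to 82.3%), and the median fold of the 13 was 3.34. The H3K27me3 share at constant peaks of 3 kb or more was not computed. H3K27me3 was also more frequent at long constant peaks. Among peaks of 2 kb or more it was listed at 20.3% of new sites (14 of 69, interval 12.5 to 31.2%) and at 871 of 3489 constant peaks, a share inside that interval. The longest, on chromosome 11 from 12159587 to 12165618, held 814 tags in WT IM, 250 in SDG711 RNAi and 277 in jmj703, over 6032, 2098 and 4155 bp. Its folds of 3.84, 3.81 and 3.24 were low, and H3K27me3 was listed there in WT IM and SDG711 RNAi IM. The next, on chromosome 5 from 29920383 to 29926170, held 902, 416 and 272 tags at a WT IM fold of 2.69 and had H3K27me3 in all 3 IM libraries. No control library was used, so the part of extra sequence copies in these low, wide peaks was not tested.

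Some sites lay far from any H3K4me3 of the SAM. The median distance to the nearest WT SAM H3K4me3 peak was 5243 bp (quartiles 2585 and 10563 bp), 117 sites were within 1 kb (8.76%) and 32 were more than 50 kb away. The farthest, on chromosome 9 from 7594523 to 7595703, was 149406 bp away and held 123, 162 and 68 tags in WT IM, SDG711 RNAi IM and jmj703 IM. Its neighbour on chromosome 9 from 7662884 to 7663981 held 119, 118 and 46 tags. On chromosome 12 from 14322064 to 14323029, 100384 bp from SAM H3K4me3, the counts were 77, 103 and 88, and the densities of 4.32, 5.63 and 14.2 set jmj703 IM apart with a ratio of 3.29 (interval 2.40 to 4.53). None of the 32 had H3K27me3 in an IM library, and the interval of that share, 0 to 10.7%, includes the 6.81% of all new sites.

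At the border of the rule, the closest site inside it ended 1 bp from a WT SAM H3K4me3 peak, on chromosome 11 from 454055 to 455568. It held 231 tags in WT IM, 580 in SDG711 RNAi and 55 in jmj703. The SDG711 RNAi peak spanned 3935 bp against 1514 bp in WT IM, and their densities of 8.22 and 8.27 did not stand apart (ratio 0.994, interval 0.852 to 1.16). On chromosome 12 from 1452754 to 1453825 a WT SAM H3K27me3 peak was 1 bp away, and H3K27me3 was listed at the site itself in all 3 IM libraries. Just outside, chromosome 4 from 32227976 to 32228957 overlapped a SAM H3K27me3 peak by 2 bp, with 90, 130 and 34 H3K4me3 tags. On chromosome 5 from 14840299 to 14841281, with 80, 190 and 39 tags, the overlap with SAM H3K4me3 was 38 bp. The 4 closest inside held 98 to 231 WT IM tags and the 4 closest outside 80 to 166, so the ranges overlapped.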

How the data were processed

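MACS 1.4.0rc2 was run by the authors on every library alone, per the file headers, with no control, on an alignment whose name marks duplicates as removed. A cap of 2 or 3 tags per position was then applied. Its p cutoff was 1e-05 and its effective genome size 401 Mb. The submitters' processing notes also list Bowtie2 2.1.0 and Trimmomatic 0.32, whose roles they do not give. No gene is named and no sequence shown, since the build, not given in the sources used here, could not be matched to a reference. The deposited tag count of a peak is a raw count. The deposited score is 10 times the negative log10 of its Poisson p. The deposited fold is a ratio to the regional background of the same library. Folds printed for different lists are not on a common scale.

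Depth is the header's filtered tag total. Tag density divides the tags of a library's own overlapping peaks by their length and by depth. For the SAM call probability, each peak's background was found by inverting its Poisson p, and tags were scaled to the SAM depth and median excess. Starts below 1 were set to 1. Computations used Python 3.11.15, numpy 2.4.6, pandas 2.3.3 and scipy 1.17.1, and overlap and probability code was tested on simulated data.

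Regions were named by rule: the 10 highest WT IM scores, and the 6 highest folds among sites with at least 50 tags in each IM library. Further ones were the longest, those with IM H3K27me3 in all 3 lists, those farthest from SAM H3K4me3, the extremes of both ratios, the largest group within 20 kb, and those at the border. The same minimum was used to pick the ratio extremes, while medians and counts of ratios run over all 1336 sites. Not all named regions are printed. Members and lists were chosen with earlier results of these data known. The 6 RNA samples were not analysed here.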

Additional observations from a re-analysis of the deposited data

How the results depend on the processing

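No paired analysis was possible because each ChIP group had 1 library and no result came from a test. The number of sites, 1336, ran from 1139 to 1398 when the overlap was raised to 200 bp, when a SAM peak within 1 kb counted as present, and when sites were counted from either altered list. It was 1962 without the jmj703 list, an alternative added after seeing the data. It fell to 573 with the IM lists at p of at most 1e-10 and rose to 2157 with all 5 lists at that p, where 74.9% of sites lay within 1 kb of a deposited SAM H3K4me3 peak, since weaker SAM peaks no longer counted. The share with IM H3K27me3, 6.81%, stayed between 5.27% (SAM peak within 1 kb counted) and 7.65%. Median length was 1265 bp with strict IM lists, 1355 bp with all lists strict, 1351 bp and 973 bp from the SDG711 RNAi and jmj703 lists, and 1203 bp without jmj703. Median fold was 5.41, 5.77, 5.06, 7.00 and 4.50 in that order, where 5.06 and 7.00 are on the scales of the altered libraries. The share with a SAM call probability of at least 0.99, 13.7%, was 26.0%, 47.6%, 36.5%, 27.1% and 9.94% in that order, and 45.1% with depth alone. The share within 1 kb of SAM H3K4me3, 8.76%, was 10.6% from the jmj703 list and, by construction, 0% where such peaks counted as present. The jmj703 ratio, 1.57, was 1.64 with strict IM lists and 1.51 with all lists strict, and the SDG711 RNAi ratio, 1.10, was 1.08 with all lists strict and 1.10 without jmj703. The cause of these shifts was not tested beyond what the settings remove. Absence from the WT SAM list is limited by the depth and enrichment of that library, and absence from the jmj703 list by its depth.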

Other observations

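The new sites were spread over all 12 chromosomes. Their share of WT IM H3K4me3 peaks was lowest on chromosome 3, at 4.72% (133 of 2818, interval 4.00 to 5.57%), and highest on chromosome 11, at 8.63% (107 of 1240, interval 7.19 to 10.3%). Chromosome 11 also had the fewest WT IM peaks per Mb, 42.7, against 77.4 on chromosome 3, and the number of new sites per Mb was 3.69 and 3.65. When each chromosome was divided into 10 parts from start to end, the share was highest in the fourth part, at 8.02% (116 of 1447, interval 6.73 to 9.53%), and lowest in the ninth, at 4.62% (135 of 2923, interval 3.92 to 5.44%).

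No other new site lay within 20 kb of 1101 of the new sites, 216 formed 108 pairs, and 5 groups held 3. The sites were sparse, at 2.97 to 4.06 per Mb by chromosome, and no background for these counts was computed. They were not set apart from other H3K4me3. The next WT IM peak was a median of 5161 bp away, against 5139 bp for constant peaks. The 1 group of 4 lay on chromosome 8. Its sites ran from 27622312 to 27623349, from 27629949 to 27631091, from 27647577 to 27648684 and from 27660034 to 27661402. They held 96, 128, 107 and 184 tags in WT IM, 126, 175, 150 and 268 in SDG711 RNAi IM, and 29, 89, 41 and 55 in jmj703 IM. Tag density was highest in jmj703 IM and lowest in WT IM at all 4, and none overlapped an IM H3K27me3 peak. This was common among the new sites. Over all of them, density was above that of WT IM at 98.6% in jmj703 IM and at 78.8% in SDG711 RNAi IM, and 93.2% had no IM H3K27me3. The last site of the group lay 22703 bp from SAM H3K4me3.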
